A study of Mus musculus with 8 samples.

Results

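The genes described here are 10 genes whose RNA is a hallmark of pluripotent mouse cells, and they were taken by symbol from the gene tables of the series, which list 24318 symbols. They are Pou5f1, Nanog, Sall4, Utf1, Nr0b1, Tdgf1, Gdf3, Fgf4, Tdh and L1td1. All 10 were found in each of the 8 libraries. The study asked how WDR68, a WD40-repeat protein tied by the series to the PRC1-AUTS2 Polycomb complex, bears on stem cell differentiation, and sequenced polyadenylated RNA from 4 groups with 2 libraries each. Wdr68 KO-NPC and E14-NPC carry the label of neural progenitor cells (NPC) and were made from the knockout and from the wild-type E14 line. Wdr68 KO-ESC and E14-ESC are the embryonic stem cells (ESC) of the same 2 genotypes. ESC were grown with serum, LIF and inhibitors of the kinases MEK and GSK3, on feeder fibroblasts or on gelatin. For NPC, cells left feeders for gelatin, then formed embryoid bodies in hanging drops of 500 cells for 2 days without LIF or inhibitors, spent 2 days in suspension, and received retinoic acid, stated in the labels as 5 mM, for 4 days. How many knockout clones were used is not given in the sources used here. The design text speaks of duplicates without saying that they were separate cultures, so the p-values speak of the spread between libraries and not of separate cultures, and that spread may be technical.

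Pluripotent cells keep the capacity to form all tissues of the embryo through a small circuit of transcription factors, with OCT4 (the product of Pou5f1), SOX2 and NANOG at its centre, which bind their own genes and one another's. FGF4 made by the same cells drives them towards differentiation through FGF receptors and ERK signalling, whereas NODAL, its coreceptor and related TGF-beta ligands act through SMAD proteins. When mouse ESC lose LIF and the inhibitors and meet retinoic acid, this circuit is shut down and neural genes are turned on.

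Levels are in FPKM, a unit of fragments divided by the length of the transcript and by the size of the library. Summed over all genes, the fragments implied by the error bounds of the tables came to between 5996677 and 7942644 per library, lowest in E14-NPC replicate 2. This sum is not the sequencing depth, as it includes genes with several start sites, whose bounds need not give fragments. The gene of WDR68, listed as Dcaf7, checks the knockout labels. Dcaf7 had 8.36 and 8.99 FPKM in knockout NPC, against 27.2 and 29.6 FPKM in wild-type NPC. It had 2.80 and 2.26 FPKM in knockout ESC, against 12.4 and 14.2 FPKM in wild-type ESC. The knockout libraries were therefore lower at both stages without reaching 0. The NPC label was checked with 12 markers of neural progenitors, of which 6 averaged at least 1 FPKM in knockout NPC and 12 in wild-type NPC. Their summed level was 47.7 to 51.8 FPKM in knockout NPC, against 314 to 321 FPKM in wild-type NPC. In ESC it was 87.9 to 88.3 FPKM in the knockout and 94.6 to 107 FPKM in the wild type, mostly from Sox2. The sum in knockout NPC was thus under that of ESC. For the knockout, NPC is therefore used here as the label of the group. Of 7 mesoderm and blood markers, 6 averaged at least 1 FPKM in knockout NPC and 5 in wild-type NPC, where Gata1 was at 0. Their summed level was 726 to 863 FPKM in knockout NPC, against 70.5 to 92.6 FPKM in wild-type NPC. Of the 12 progenitor markers, 11 passed as lower in knockout than in wild-type NPC, against 12.7% of all genes tested. Nes, which encodes the intermediate filament nestin, did not pass, with a mean of 23.9 FPKM in knockout NPC and 30.0 FPKM in wild-type NPC (adjusted p = 0.0786, limma). Relative to knockout ESC, 6 of the 12 markers rose in knockout NPC, Nes by 2.71 on the log2 scale, and 2 fell. Of all genes, 41.6% were called higher and 28.8% lower there. Most of the mesoderm and blood sum came from the embryonic globin genes Hba-x and Hbb-bh1. All 6 mesoderm and blood markers that were tested passed as higher in knockout than in wild-type NPC, against 14.7% of all genes.

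The letters ahead of the start sites of Nanog and Pou5f1 are shown because OCT4 and SOX2 are known to bind the Nanog promoter side by side, and because a GC-rich element and a nuclear receptor element are known landmarks of the Pou5f1 promoter. The sequences are those of RefSeq on GRCm38.p6, read 5′ to 3′ on the plus strand, each ending at the base before the most upstream start of the gene. Nanog covers chr6:122707239-122707488, with the POU-SOX composite element in capitals. Pou5f1 covers chr17:35505782-35506031, with the letters GGGCGG of the GC box and AGGTCA of nuclear receptors in capitals.
Nanog: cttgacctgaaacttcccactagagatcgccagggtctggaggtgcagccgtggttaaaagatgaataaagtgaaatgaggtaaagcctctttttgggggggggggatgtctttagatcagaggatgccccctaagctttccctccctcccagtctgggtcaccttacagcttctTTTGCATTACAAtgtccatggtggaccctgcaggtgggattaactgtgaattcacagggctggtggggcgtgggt
Pou5f1: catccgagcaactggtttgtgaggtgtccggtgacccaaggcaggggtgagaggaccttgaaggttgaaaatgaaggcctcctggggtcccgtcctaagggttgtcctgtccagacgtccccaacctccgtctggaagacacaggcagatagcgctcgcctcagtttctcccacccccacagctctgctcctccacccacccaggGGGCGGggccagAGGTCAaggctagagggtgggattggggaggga

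Of the 10 genes, 7 matched the promoter table with 9 windows of 300 bases, each from 250 bases before to 50 after a start. Sall4, Gdf3 and Tdh did not match. The composite TTTGCATTACAA, searched on both strands like every motif here and with any base allowed at its last T, began at position -75 in Nanog, counted back from the start. It occurred in 12 of all 32851 windows of the table, 0.0365%, and Nanog was the 1 gene of the 7 that held it. Of the 12, 2 were overlapping windows of Nanog that hold the same site, at position -151 from its other start. GGGCGG began at position -45 and AGGTCA at position -33 of Pou5f1. GGGCGG occurred in 35.7% of all windows, and in 4 of the 7 genes (Fgf4, Pou5f1, Tdgf1 and Utf1). AGGTCA occurred in 16.3% of all windows, and in Nanog, Nr0b1 and Pou5f1. The Klf letters CCACCC stood in L1td1, Nanog, Nr0b1 and Pou5f1, against 31.5% of all windows. ACAATG, a SOX motif that overlaps the composite in Nanog, stood in Nanog and Pou5f1, against 12.6% of all windows. In Pou5f1 it lay in the window of the other start, whose letters are not shown. TATAAA stood in Nr0b1, against 13.6% of all windows. The octamer ATGCAAAT (1.74% of all windows), the SOX motif AACAAAG (5.85%) and AAGGTCA, which contains AGGTCA (4.72%), were in none of these windows of the 7 genes. Such a match describes the letters in the window and says nothing of binding.

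All 10 genes fell in NPC relative to ESC, in knockout and in wild-type cells. In the limma test across 13318 genes, every member passed in both genotypes, with Benjamini-Hochberg adjusted p of 9.88e-08 to 3.57e-06 in knockout cells and 1.26e-07 to 3.23e-06 in wild-type cells. Of all genes tested, 28.8% were called lower in knockout NPC and 31.1% in wild-type NPC, and 41.6% were called higher in each. The median log2 change of FPKM + 1 over the members was -6.05 in knockout cells and -6.45 in wild-type cells, whereas over all genes it was 0.17 in knockout cells and 0.15 in wild-type cells. The NPC and ESC libraries did not overlap for any member, in the direction of lower NPC that 35.5% of all genes showed in knockout cells and 37.5% in wild-type cells. Utf1, Tdgf1, Fgf4, Tdh and Nr0b1 entered the test through their ESC level alone, so these 5 had to differ between the stages. The tables describe bulk RNA, in which fewer cells with a transcript and less RNA per cell cannot be told apart.

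**Figure D1:**
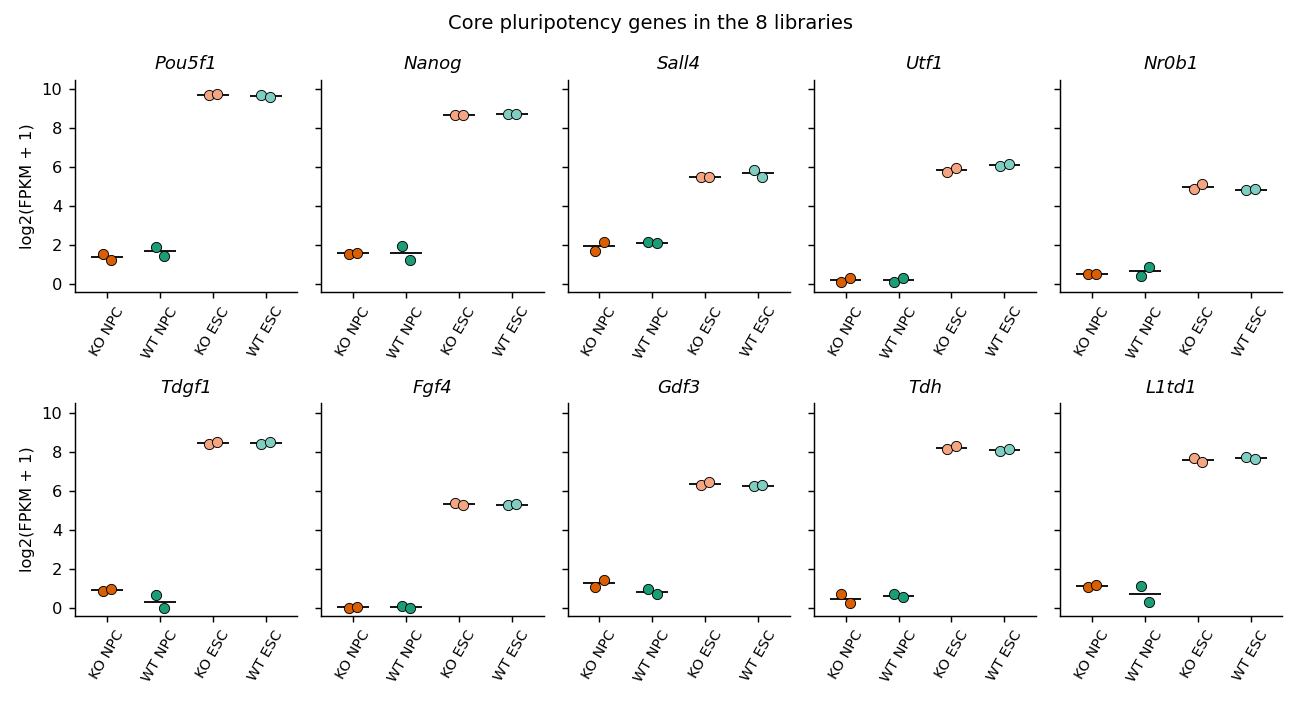
Level of each of the 10 genes as log2(FPKM + 1) in the 8 libraries, with each point a library and each line the mean of 2 libraries; KO is the Wdr68 knockout and WT the E14 wild type. For all 10 genes the NPC points lie near the bottom of the axis and the ESC points far above, and within a stage the knockout and wild-type points lie close together.

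Among the transcription factors, Pou5f1 had the highest ESC level of the 10 genes. Its product OCT4 is a POU-homeodomain protein without which pluripotent cells are not formed or kept. The gene spans chr17:35642977-35647722 on mm9, the build of the tables. Pou5f1 had 1.95 and 1.40 FPKM in knockout NPC, against 841 and 859 FPKM in knockout ESC. It had 2.80 and 1.72 FPKM in wild-type NPC, against 838 and 787 FPKM in wild-type ESC. Every NPC library was far under every ESC library. The log2 change was -8.32 ± 0.16 (SE) in knockout cells and -7.98 ± 0.16 in wild-type cells, ranked 11 and 8 from the deepest fall among all genes tested. Nanog (chr6:122657507-122664651), a homeobox factor that stabilises self-renewal, had 1.91 and 2.05 FPKM in knockout NPC, against 406 and 415 FPKM in knockout ESC. Nanog had 2.87 and 1.36 FPKM in wild-type NPC, against 421 and 433 FPKM in wild-type ESC. The 2 wild-type NPC libraries lay on either side of the knockout ones. Its fall was -7.11 ± 0.20 in knockout cells and -7.15 ± 0.20 in wild-type cells. Pou5f1 and Nanog have retrotransposed copies elsewhere in the mouse genome. How reads that fit several places were shared among them is not given in the sources used here, so their low NPC levels are the less certain. Whether the other members, Tdgf1 among them, have such copies was not examined.

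Sall4 (chr2:168573832-168592701) encodes a zinc-finger factor that works with OCT4 and with the NuRD chromatin complex. It fell least of the 10 genes in both genotypes. Sall4 had 2.23 and 3.54 FPKM in knockout NPC, against 43.9 and 43.7 FPKM in knockout ESC. In wild-type cells it had 3.45 and 3.29 FPKM in NPC, against 57.8 and 43.9 FPKM in ESC. The log2 change was -3.55 ± 0.18 in knockout cells and -3.56 ± 0.18 in wild-type cells. The NPC libraries of the genotypes overlapped, and Sall4 had the highest NPC level of the 10 in each genotype. Utf1 (chr7:147129755-147131011), which encodes a chromatin-bound protein of undifferentiated cells, had 0.0900 and 0.253 FPKM in knockout NPC, against 52.8 and 62.3 FPKM in knockout ESC. Utf1 had 0.0841 and 0.229 FPKM in wild-type NPC, against 66.7 and 71.0 FPKM in wild-type ESC. It fell by 5.64 (SE 0.13) on the log2 scale in knockout cells and by 5.92 (SE 0.13) in wild-type cells. Nr0b1 (chrX:83437114-83441285) encodes DAX1, an orphan nuclear receptor that binds OCT4 and other nuclear receptors. Nr0b1 had 0.432 and 0.455 FPKM in knockout NPC, against 28.2 and 34.0 FPKM in knockout ESC. In wild-type cells it had 0.353 and 0.826 FPKM in NPC, against 27.7 and 28.4 FPKM in ESC. It was the lowest of the 10 genes in ESC, and changed by -4.47 ± 0.16 in knockout cells and by -4.21 ± 0.16 in wild-type cells.

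The 3 signalling genes encode a coreceptor and 2 ligands. Tdgf1 (chr9:110842112-110848662) encodes CRIPTO, the membrane-anchored coreceptor for NODAL. Tdgf1 had 0.849 and 0.982 FPKM in knockout NPC, against 344 and 366 FPKM in knockout ESC. The wild-type NPC libraries listed it at 0.560 and 0 FPKM, against 344 and 365 FPKM in wild-type ESC. Its ESC libraries were nearly alike between genotypes, and 1 wild-type NPC library held no fragment of it. Tdgf1 changed by -7.54 ± 0.19 in knockout cells and by -8.15 ± 0.19 in wild-type cells, where it ranked 5 from the deepest fall among all genes tested. Gdf3 (chr6:122555421-122560089) encodes a TGF-beta family ligand related to NODAL. Gdf3 had 1.14 and 1.66 FPKM in knockout NPC, against 77.4 and 87.7 FPKM in knockout ESC. It had 0.935 and 0.628 FPKM in wild-type NPC, against 75.8 and 77.6 FPKM in wild-type ESC. Both knockout NPC libraries were above both wild-type ones. The change was -5.13 ± 0.14 in knockout cells and -5.45 ± 0.14 in wild-type cells. Fgf4 (chr7:152047291-152051148), the ligand through which ESC signal to themselves by ERK, was the nearest to 0 in NPC. Fgf4 was listed at 0 and 0.0285 FPKM in knockout NPC, against 40.2 and 37.5 FPKM in knockout ESC. Wild-type NPC listed it at 0.0853 and 0 FPKM, against 37.4 and 39.2 FPKM in wild-type ESC. One library of each NPC group thus held no fragment of Fgf4, and the change on the log2 scale was -5.30 ± 0.10 in knockout cells and -5.24 ± 0.10 in wild-type cells.

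Tdh and L1td1 stand for metabolism and RNA binding. Tdh (chr14:64111184-64127929) encodes threonine dehydrogenase, the mitochondrial enzyme by which mouse ESC break down threonine to feed glycine and acetyl-CoA. Tdh had 0.616 and 0.192 FPKM in knockout NPC, against 285 and 313 FPKM in knockout ESC. It had 0.623 and 0.458 FPKM in wild-type NPC, against 269 and 283 FPKM in wild-type ESC. The change was -7.75 ± 0.15 in knockout cells and -7.49 ± 0.15 in wild-type cells, among the deepest of the 10 genes. L1td1 (chr4:98393445-98405177) encodes an RNA-binding protein derived from a LINE-1 retrotransposon. L1td1 had 1.13 and 1.24 FPKM in knockout NPC, against 203 and 181 FPKM in knockout ESC. In wild-type cells it had 1.17 and 0.240 FPKM in NPC, against 214 and 198 FPKM in ESC. E14-NPC replicate 1 lay between the 2 knockout NPC libraries, and replicate 2 far below all of them. L1td1 changed by -6.47 ± 0.23 in knockout cells and by -6.98 ± 0.23 in wild-type cells.

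**Figure D2:**
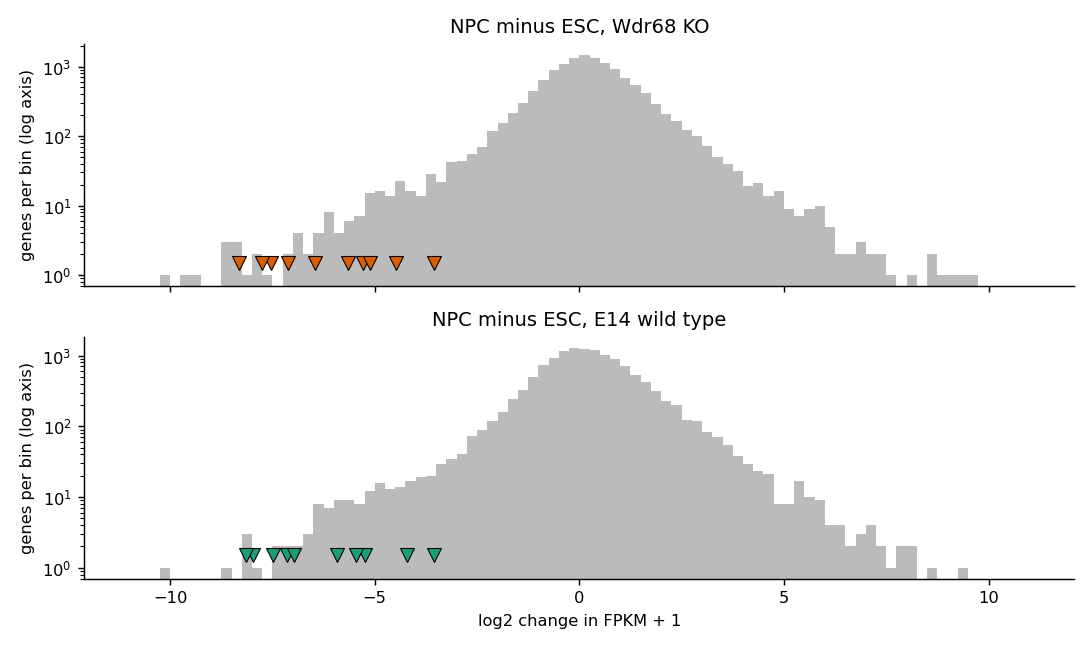
Histogram of the log2 change in FPKM + 1 from ESC to NPC for the 13318 genes tested, on a log count axis, with the 10 members as triangles, for knockout cells (top) and wild-type cells (bottom). The triangles lie in the left tail, from -8.32 to -3.55 in knockout cells and from -8.15 to -3.56 in wild-type cells.

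The members differed among themselves in how much of the ESC level was left in NPC. As the log2 change of FPKM + 1 understates the fall of genes near 0 in NPC, the mean NPC level was also given as a percent of the mean ESC level. The median over the 10 genes was 0.390% in knockout cells and 0.311% in wild-type cells. In each genotype 7 of the 10 genes kept under 1%. Of the genes with at least 20 FPKM in ESC, 2.85% of 3438 kept under 1% in knockout cells and 2.96% of 3443 in wild-type cells, and their median was 76.5% in knockout cells and 72.8% in wild-type cells. Sall4 kept the most, 6.59% in knockout cells (95% interval 5.71% to 7.56%) and 6.62% in wild-type cells (5.82% to 7.51%). Nr0b1 kept 1.43% in knockout cells (0.830% to 2.28%) and 2.102% in wild-type cells (1.27% to 3.28%). Gdf3 kept 1.69% in knockout cells (1.30% to 2.17%), against 1.02% in wild-type cells (0.697% to 1.44%). These 3 genes were the ones above 1% in both genotypes. The intervals are exact Poisson intervals on the NPC fragments and cover counting error only, not the spread between libraries.

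At the other end, Fgf4 kept 0.0367% in knockout cells (0.000928% to 0.204%) and 0.111% in wild-type cells (0.0230% to 0.325%), from 1 fragment in knockout NPC and 3 in wild-type NPC. Utf1 rested on 4 fragments in knockout NPC and 3 in wild-type NPC, and kept 0.298% in knockout cells (0.0812% to 0.763%) and 0.228% in wild-type cells (0.0470% to 0.665%). At this depth no difference between the genotypes was detectable for these 2 genes. Tdgf1 kept 0.258% in knockout cells (0.183% to 0.354%, 38 fragments) and 0.0790% in wild-type cells (0.0408% to 0.138%, 12 fragments). L1td1 kept 0.616% in knockout cells (0.485% to 0.771%) and 0.344% in wild-type cells (0.252% to 0.458%). For Tdgf1 and L1td1 the counting intervals of the genotypes did not meet. For Gdf3 they overlapped, and the intervals leave out that the 2 wild-type NPC libraries held 12 and 0 fragments of Tdgf1 and 40 and 6 of L1td1. Tdh kept 0.135% in knockout cells (0.0772% to 0.219%) and 0.196% in wild-type cells (0.120% to 0.303%). Pou5f1 kept 0.197% ± 0.0454 in knockout cells and 0.278% ± 0.0941 in wild-type cells (SD over the NPC libraries, n = 2 each). Nanog kept 0.482% ± 0.0255 in knockout cells and 0.495% ± 0.249 in wild-type cells, so the genotypes of both genes differed by less than the spread of the wild-type libraries. No fragment number is given for Pou5f1 and Nanog, each of which has 2 start sites in the tables.

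**Figure D3:**
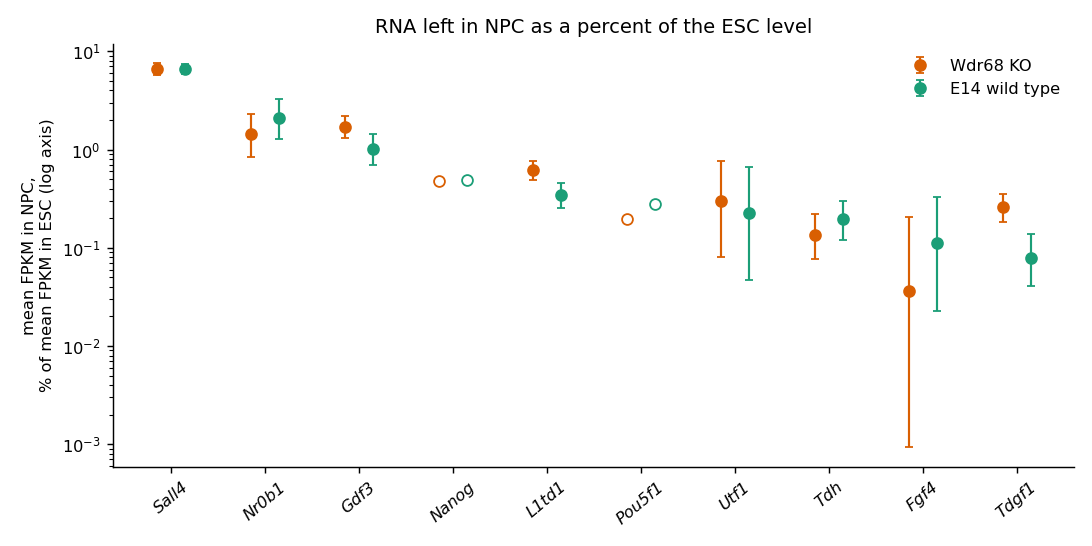
Mean FPKM in NPC as a percent of the mean FPKM in ESC of the same genotype, on a log axis, for the knockout (left of each pair) and the wild type; bars are exact 95% Poisson intervals on the NPC fragments and open circles are the 2 genes without a fragment number. Sall4 keeps over 5% in both genotypes, and the bars of the knockout and the wild type do not meet for Tdgf1 and L1td1.

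None of the 10 genes passed the threshold between knockout and wild-type ESC. The members differed between knockout and wild-type ESC by log2 changes of -0.26 to 0.14, and 0 of 10 passed limma's test, with 0 at an unadjusted p under 0.05. Of all genes tested, 0.248% passed. The lowest value was that of Utf1, which averaged 57.5 ± 6.66 FPKM in knockout ESC and 68.8 ± 3.04 FPKM in wild-type ESC (SD, n = 2 libraries each). Its log2 change of -0.26 had a 95% confidence interval of -0.57 to 0.05, with adjusted p = 0.469 in limma's test. All 10 intervals lay within -0.65 to 0.53, which bounds the changes that these libraries leave possible. Both knockout libraries lay above both wild-type libraries for Pou5f1 and Tdh, and below them for Nanog, Sall4 and Utf1. Among all genes, 19.5% lay apart in the higher direction and 24.7% in the lower one, and the other 5 members overlapped. The order of the levels in ESC was the same in both genotypes, Pou5f1, Nanog, Tdgf1, Tdh, L1td1, Gdf3, Utf1, Sall4, Fgf4 and Nr0b1, and no neighbours in it overlapped in either genotype.

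In NPC, 1 of the 10 genes passed as higher in the knockout and 0 as lower, whereas 14.7% of all genes passed as higher and 12.7% as lower. That gene was Tdgf1, with a log2 change of 0.62 ± 0.19 and a 95% confidence interval of 0.17 to 1.06 (adjusted p = 0.0484, limma). Its levels were under 1 FPKM in all 4 NPC libraries. With a pseudocount of 0.1 in place of 1 the change was 1.98 (adjusted p = 0.1001, limma). The call held in 3 of 15 alternatives, with adjusted p between 0.00276 and 0.175 over them, and it was lost with a replicate block (adjusted p = 0.0659, limma). Leaving out any library other than E14-NPC replicate 1 also ended it. Without E14-NPC replicate 2, which listed Tdgf1 at 0, the log2 change was 0.30 (adjusted p = 0.0862, limma), and without E14-NPC replicate 1 it was 0.94 (adjusted p = 0.00276, limma).

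Gdf3 came next, with a log2 change of 0.43 ± 0.14, a 95% confidence interval of 0.10 to 0.76 and adjusted p = 0.0622 in limma's test. Tdgf1 and Gdf3 were the 2 members whose knockout NPC libraries both lay above both wild-type ones, which 36.6% of all genes did. L1td1 had a log2 change of 0.41 with an interval of -0.14 to 0.96, and Pou5f1 one of -0.27 with an interval of -0.66 to 0.11. Nanog was at -0.02 with an interval of -0.49 to 0.45. The other 5 (Sall4, Utf1, Nr0b1, Fgf4 and Tdh) had changes between -0.19 and 0.02, and the intervals of all 9 that did not pass lay within -0.66 to 0.96. Replicate 2 was higher than replicate 1 for 8 of the 10 genes in knockout NPC and for 7 in each ESC group. The same count over all genes is not given here. E14-NPC replicate 2 was lower than replicate 1 for 8 of the 10 genes, and several of these values shifted when it was left out. Without it Nanog was at -0.38 (adjusted p = 0.0262, limma), Pou5f1 at -0.51 (adjusted p = 0.0490, limma) and L1td1 at 0.01 (adjusted p = 0.989, limma). Without E14-NPC replicate 1, Nanog was at 0.34 (adjusted p = 0.0348, limma) and L1td1 at 0.82 (adjusted p = 0.00685, limma). The direction for Nanog therefore turned with the wild-type NPC library that was left out, and the value of L1td1 rested on E14-NPC replicate 2.

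Among the members in NPC, Sall4 had the highest level in both genotypes and lay apart from the next gene. In knockout NPC the order was then Nanog, Pou5f1, Gdf3, L1td1, Tdgf1, Nr0b1, Tdh, Utf1 and Fgf4. Nanog, Pou5f1, Gdf3 and L1td1 overlapped each with its neighbour, as did Nr0b1, Tdh and Utf1. In wild-type NPC, Pou5f1 and Nanog overlapped and lay above Gdf3, L1td1, Nr0b1, Tdh, Tdgf1, Utf1 and Fgf4, each of which overlapped its neighbour. Tdgf1 stood thus in place 6 in knockout NPC and in place 8 in wild-type NPC.

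The difference between the knockout effects at the 2 stages, NPC minus ESC, passed for 0 of the 10 genes in limma's test, with 0 at an unadjusted p under 0.05. It passed for 16.8% of all genes. Values lay between -0.34 for Pou5f1 and 0.61 for Tdgf1, where Tdgf1 had a 95% confidence interval of -0.01 to 1.24 and adjusted p = 0.165 in limma's test. The 10 intervals lay within -0.88 to 1.29.

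**Figure D4:**
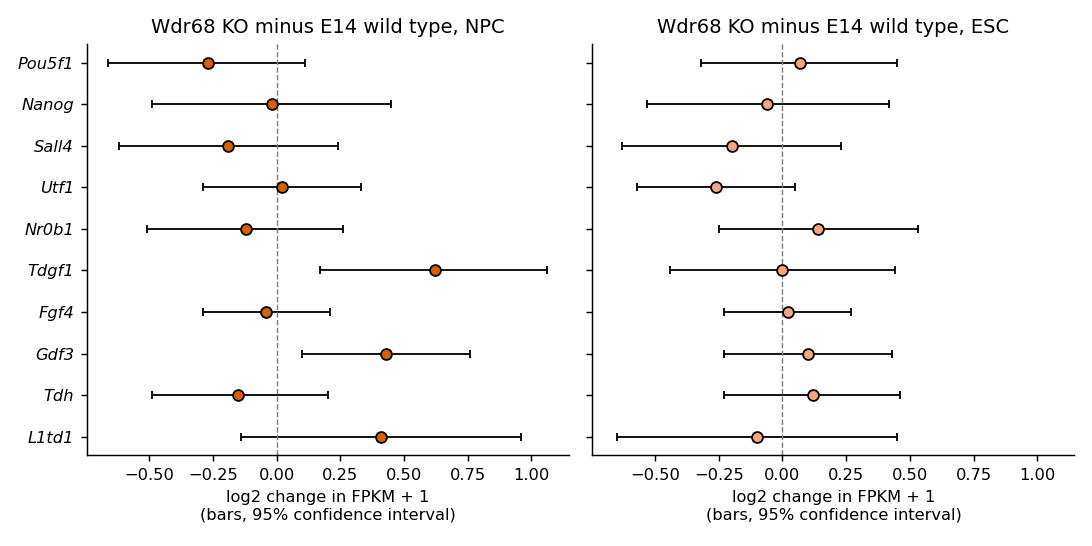
Knockout minus wild type as log2 change in FPKM + 1 for each of the 10 genes in NPC (left) and ESC (right), with 95% confidence intervals from limma. In ESC all 10 intervals include 0, and in NPC those of Tdgf1 and Gdf3 lie above 0.

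Germ cells, which share several of these transcripts, and other cell types were looked at beside the low NPC values. The summed level of 9 primordial germ cell markers was 7.41 to 8.26 FPKM in knockout NPC and 13.2 to 13.3 FPKM in wild-type NPC, and of the 9, 2 averaged at least 1 FPKM in knockout NPC and 3 in wild-type NPC. Dppa3 and Dazl were at 0 in knockout NPC. The 8 feeder fibroblast markers summed to 66.7 to 76.8 FPKM in knockout NPC and 89.8 to 102 FPKM in wild-type NPC. Of the 8, 3 averaged at least 1 FPKM in knockout NPC and 7 in wild-type NPC. Most of the sum came from Col1a1, Col1a2 and Col3a1. Their means were 12.2, 17.9 and 39.1 FPKM in knockout NPC and 21.2, 13.0 and 49.4 FPKM in wild-type NPC. The 8 markers summed to 1.01 to 1.08 FPKM in knockout ESC and 1.35 to 1.59 FPKM in wild-type ESC. Lum and Postn were at 0 in ESC of both genotypes. The 8 extraembryonic endoderm markers summed to 61.9 to 71.2 FPKM in knockout NPC and 28.5 to 33.7 FPKM in wild-type NPC. Of the 7 of them that were tested, 3 passed as higher in knockout NPC, Gata4 most at 2.95 ± 0.24, and 2 as lower, Sox17 at -0.64 and Lama1 at -0.70. Among all genes 14.7% passed as higher and 12.7% as lower between these groups. The 7 trophoblast markers summed to 89.5 to 101 FPKM in knockout NPC and 51.4 to 59.5 FPKM in wild-type NPC. Krt8, a keratin of many epithelia, made up most of that sum, with a mean of 90.8 FPKM in knockout NPC and 53.2 FPKM in wild-type NPC. It was the 1 of the 4 tested that passed between these groups, while Eomes and Tfap2c fell in NPC relative to ESC in both genotypes. The 7 neuron markers summed to 12.0 to 18.0 FPKM in knockout NPC and 343 to 367 FPKM in wild-type NPC. In ESC they summed to 120.3 to 120.4 FPKM in the knockout and 122.73 to 122.74 FPKM in the wild type. The part of these cell types in the NPC levels of the 10 genes was not tested.

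The genes that the members work with were followed as a list of 35 partners, of which 33 were tested. In knockout NPC against knockout ESC 18 fell and 14 rose. In wild-type NPC against wild-type ESC 17 fell and 12 rose, and the median log2 change was -0.39 in knockout cells and -0.33 in wild-type cells. Beside these counts, 28.8% of all genes were called lower in knockout NPC and 31.1% in wild-type NPC, and 41.6% were called higher in each. Around Tdgf1 and Gdf3, Lefty2, a secreted NODAL antagonist and the partner that fell most, averaged 0.0191 FPKM in knockout NPC, against 123 FPKM in knockout ESC. It averaged 0.256 FPKM in wild-type NPC, against 128 FPKM in wild-type ESC. Nodal itself changed by -4.37 in knockout cells and by -4.60 in wild-type cells, and Foxh1, the SMAD partner in the nucleus, by -5.09 in knockout cells and by -4.69 in wild-type cells. Acvr2a, Acvr2b, Smad3 and Smad4 rose in both genotypes, Smad3 by 2.87 in knockout cells and by 2.65 in wild-type cells. The changes named so far passed limma's test, with adjusted p between 1.77e-07 and 0.00574. Of the convertases that process such ligands, Furin rose by 1.69 in knockout cells and by 1.57 in wild-type cells, whereas Pcsk6 fell by 3.78 in knockout cells and by 3.08 in wild-type cells. The receptor gene Acvr1b did not pass in either genotype, Smad2 was at 0.55 in knockout cells, where it passed, and at 0.18 in wild-type cells, with no call for the difference (adjusted p = 0.116, limma), and Acvr1c was too low to be tested.

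Of the 4 FGF receptor genes, Fgfr1, Fgfr2 and Fgfr3 rose in both genotypes, while Fgf4 fell, and Fgfr4 was too low to be tested. Fgfr2, the partner that rose most, averaged 14.5 ± 0.722 FPKM in knockout NPC and 20.5 ± 0.390 FPKM in wild-type NPC (SD, n = 2 libraries each). It averaged 0.424 FPKM in knockout ESC and 0.321 FPKM in wild-type ESC. Fgfr1 rose by 0.74 in knockout cells and by 0.50 in wild-type cells, and Fgfr3 by 0.90 in knockout cells and by 2.97 in wild-type cells. Around Tdh, Gcat, which encodes the enzyme of the next step of threonine breakdown, averaged 11.5 FPKM in knockout NPC, against 27.8 FPKM in knockout ESC, and 11.9 FPKM in wild-type NPC, against 24.9 FPKM in wild-type ESC. Gldc, of the glycine cleavage system, fell by 2.38 on the log2 scale in knockout cells and by 0.65 in wild-type cells. Among the relatives of Sall4, Sall2 rose by 2.91 in knockout cells and by 3.10 in wild-type cells, whereas Sall1 fell by 2.87 in knockout cells and by 0.97 in wild-type cells. The changes in this paragraph passed limma's test, with adjusted p between 3.30e-07 and 0.0127.

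The partner that was lowest in knockout relative to wild-type NPC was Sox2, the SOX factor that pairs with OCT4 and is also used by neural progenitors. Sox2 had 1.15 and 2.47 FPKM in knockout NPC, against 77.5 and 77.5 FPKM in knockout ESC. It had 30.4 and 29.9 FPKM in wild-type NPC, against 92.9 and 83.3 FPKM in wild-type ESC. Sox2 fell by 4.85 ± 0.20 on the log2 scale in knockout cells (adjusted p = 1.34e-06, limma). In wild-type cells it fell by 1.51 ± 0.20 (adjusted p = 0.000334, limma). Wild-type NPC therefore kept part of the Sox2 RNA, while the highest member there, Sall4, averaged 3.37 FPKM. Knockout NPC kept less Sox2 RNA, with a mean of 1.81 FPKM, under the 2.89 FPKM of Sall4 and the 1.98 FPKM of Nanog. For Sox2, knockout minus wild type was -3.51 ± 0.20 in NPC (adjusted p = 4.88e-05, limma). The difference between this and the effect in ESC was -3.33 ± 0.28 (adjusted p = 0.000608, limma). Of the 33 partners, 0 passed between knockout and wild-type ESC, and in NPC 13 passed as lower and 1 as higher in the knockout. Among all genes tested, 0.248% passed in ESC, and in NPC 12.7% passed as lower and 14.7% as higher. The 1 partner that was higher was Mbd3, a NuRD subunit, at 0.27 ± 0.08 (adjusted p = 0.0437, limma). For the difference between the stages 8 partners passed as lower and 1 as higher, Nacc1 at 0.45 ± 0.08 (adjusted p = 0.0128, limma). That difference passed for 16.8% of all genes.

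The naive factors, which hold ESC in the state kept by LIF and the inhibitors, fell alongside the members. Of 16 tested, 15 fell in knockout NPC and 16 in wild-type NPC relative to ESC, with a median of -3.52 in knockout cells and -3.72 in wild-type cells. Zfp42 fell most, with 1.24 and 0.656 FPKM in knockout NPC, against 410 and 430.0 FPKM in knockout ESC. It had 1.21 and 0.480 FPKM in wild-type NPC, against 451 and 478 FPKM in wild-type ESC. Between knockout and wild-type ESC, 0 of the 16 passed. Between knockout and wild-type NPC, 6 passed as higher and 1 as lower, with a median of 0.15. Socs3, a target and inhibitor of LIF signalling, had the largest rise, 1.16 ± 0.27 (adjusted p = 0.0199, limma), and Esrrb, an orphan nuclear receptor, was the 1 that was lower, at -0.52 ± 0.10 (adjusted p = 0.00859, limma). Esrrb had only 0.215 and 0.0806 FPKM in knockout NPC and 0.583 and 0.713 FPKM in wild-type NPC. It entered the test through its ESC level alone. For the difference between the stages 5 of the 16 passed as higher, with Klf5 at 1.24 ± 0.19 (adjusted p = 0.00656, limma), and 1 as lower, Esrrb at -0.56 ± 0.14 (adjusted p = 0.0385, limma). The naive list and the members share their libraries, and no test was made of one list against the other. Shares of all genes stand beside the counts of this and the next paragraph. Relative to ESC, 28.8% were called lower in knockout NPC and 31.1% in wild-type NPC, and 41.6% higher in each. Between knockout and wild-type NPC 14.7% were called higher and 12.7% lower, and in ESC 0.248% passed. The difference between the stages passed for 16.8%.

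Of 13 tested genes of the formative and primed states, which follow the naive one, 9 fell and 3 rose in knockout NPC, and 8 fell and 5 rose in wild-type NPC. Etv5, an ERK-responsive ETS factor, fell most, by 4.56 in knockout cells and by 4.88 in wild-type cells. The largest rise was that of Dnmt3a, a DNA methyltransferase gene, in knockout cells (2.48 ± 0.11) and that of Lef1, a Wnt pathway factor, in wild-type cells (2.82 ± 0.26). Otx2, a factor of the primed state, was the 1 gene of the list that passed between knockout and wild-type ESC, with 5.68 FPKM on average in knockout ESC and 1.48 FPKM in wild-type ESC. Its log2 change was 1.44 ± 0.16 (adjusted p = 0.0286, limma). Between knockout and wild-type NPC, 6 of the 13 passed as lower, Zic2 most at -3.53 ± 0.13 (adjusted p = 1.97e-05, limma), and Dnmt3a passed as higher at 0.48 ± 0.11 (adjusted p = 0.0172, limma). For the difference between the stages 5 passed as lower, Zic2 most at -3.01 ± 0.19 (adjusted p = 0.000238, limma), and 0 as higher. Of 23 other stem cell genes 20 fell in knockout NPC and 19 in wild-type NPC. Dppa5a fell most, by 9.27 (SE 0.45) in knockout cells and by 8.68 (SE 0.45) in wild-type cells, and Epcam, a surface adhesion protein, rose most, by 2.25 in knockout cells and by 0.95 in wild-type cells. Of these 23 genes, 0 passed between knockout and wild-type ESC. In NPC 2 were higher in the knockout, Epcam most at 0.96 ± 0.14 (adjusted p = 0.00236, limma), and 5 lower, Sox2 most. For the difference between the stages 2 passed as higher, Epcam most at 1.30 ± 0.19 (adjusted p = 0.00526, limma), and 4 as lower, again Sox2 most. Across the partner, naive, formative and other stem cell lists, Otx2 was the only gene that passed in ESC.

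The genes whose pattern was most like that of the members were sought by distance. For each gene the log2(FPKM + 1) profile over the 8 libraries was centred on its mean, and its Euclidean distance to the mean profile of the 10 members was taken over 9245 other genes. Only genes with a mean of at least 5 FPKM in any group were compared. Symbols of microRNA, small nucleolar RNA, predicted and clone-named genes were left out, so genes of those kinds could not be found. The nearest were Triml2 (0.251), Tfcp2l1 (0.322), Dppa4 (0.401), Dppa2 (0.426) and Fbxo15 (0.437). Triml2 had 0.613 and 0.446 FPKM in knockout NPC, against 107 and 104 FPKM in knockout ESC. It had 0.636 and 0.260 FPKM in wild-type NPC, against 120.0 and 113 FPKM in wild-type ESC. Of the members themselves, Utf1 lay nearest to their mean profile at 0.701 and Sall4 farthest at 3.74, and 7 other genes were nearer than Utf1. Tfcp2l1 and Fbxo15 are also in the naive list. The distance rests mainly on the ESC to NPC change, which 8 libraries of 4 groups share.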

How the data were processed

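Per the labels, polyadenylated RNA was sequenced with a directional kit, and per the submitters' processing notes reads were aligned to mm9 with TopHat2 2.1.1 and quantified with Cufflinks 2.2.1; the annotation is not given in the sources used here. The deposited tables hold the authors' FPKM per gene with confidence bounds, and no counts. Each table has 24854 entries. Entries sharing a symbol were summed, and 12 symbols with a failed estimate in a library were left out, none of them a member. A gene was tested where at least 2 libraries reached an FPKM of 1 (13318 genes, including all 10 members). Values were put on the log2(FPKM + 1) scale and fitted by limma 3.58.1 (R 4.3.3) as 4 group means, letting the variance follow the mean level, which left 4 degrees of freedom. Tests were two-sided, called at a Benjamini-Hochberg adjusted p below 0.05 within each contrast. The fit was also run on simulated data with the same level in all groups apart from planted changes. That run does not speak for genes high in ESC and low in NPC, and its outcome is not given here. The library sums of implied fragments took in all genes. Fragment numbers of single genes were derived from the confidence bounds of genes with 1 start site. For genes with few fragments, 62.1% to 66.3% of these numbers were close to whole, where chance would give 10%. The members, gene lists and tests were chosen with earlier results of these data known. The text names the 10 members, Dcaf7, the 5 genes nearest in pattern, and, for the partner, naive, formative and other stem cell lists, the called gene with the largest change in each direction of each contrast. Other partners, single markers and the neighbours were named after their values were seen.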

Additional observations from a re-analysis of the deposited data

How the results depend on the processing

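All 10 members stayed lower in NPC in both genotypes, and none passed between knockout and wild-type ESC, under all 16 alternatives: a replicate block, leaving out each library, scaling by median ratios or by quantiles, testing all genes or those reaching an FPKM of 5, a pseudocount of 0.1, taking the highest entry of a symbol, and fitting the compared groups alone. Between knockout and wild-type NPC the count of 1 member became 0 with no filter, with the FPKM minimum of 5, with median-ratio scaling and with the replicate block. It was also 0 in the fit of only these groups, where 5 members could be tested and Tdgf1 could not. The count became 2 with quantile normalization (Tdgf1 and Gdf3), and 0 to 3 when a library was left out. With the pseudocount of 0.1 it was Gdf3 that passed (0.77, adjusted p = 0.0448, limma). Nanog, at -0.02, turned to 0.34 without E14-NPC replicate 1 and was at -0.38 without E14-NPC replicate 2. For the difference between the stages, 1 member passed with quantile normalization, and 0 to 2 with a library left out. The median percent left in wild-type cells was 0.265 to 0.457 with a library left out, the highest without E14-NPC replicate 2, against 0.311. Among all genes, 33 passed between knockout and wild-type ESC, 15 with the replicate block and 8 to 26 with a library left out. In NPC 3648 passed (1994 to 3369 with a library left out), and for the difference between stages 2237 (1072 to 1480). A lone library left in a group is assumed to vary like the other groups. Of the calls in NPC 53.8% were higher in the knockout, against 41.2% with median-ratio scaling, and for the difference between stages 50.1% against 39.2%. Quantile normalization moved the median of all genes from 0.17 to 0.00 in knockout cells and from 0.15 to -0.01 in wild-type cells for NPC against ESC. Correlations of same-numbered deviations were -0.0543 to 0.179 between groups. Such low values cannot settle whether same-numbered libraries share a culture or a day, which the labels do not say. The causes of these shifts were not tested. Depth limits the NPC values of Utf1 and Fgf4, which rest on 1 to 4 fragments per genotype.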

Other observations

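The genome neighbours of the members were looked at on mm9. Their gaps to the member ranged from 1.96 kb for Tcf19, beyond Pou5f1, to 7109 kb for Pola1, beyond Nr0b1. The nearest tested genes on either side, 19 that are not members, moved both ways: 10 were lower and 5 higher in knockout NPC, and 9 were lower and 6 higher in wild-type NPC, against 28.8% lower among all genes in knockout cells, 31.1% lower in wild-type cells and 41.6% higher in each, with medians of -0.42 in knockout cells and -0.81 in wild-type cells. Between knockout and wild-type ESC 0 of the 19 passed limma's test. Between knockout and wild-type NPC 5 were higher and 3 lower, against 14.7% higher and 12.7% lower among all genes. Slc2a3, a glucose transporter gene that begins 13.2 kb beyond Nanog, had the deepest fall of the neighbours. It had 17.9 and 19.0 FPKM in knockout NPC, against 428 and 409 FPKM in knockout ESC, and 29.2 and 34.9 FPKM in wild-type NPC, against 342 and 361 FPKM in wild-type ESC. Gdf3 and Nanog lie 1 gene apart on chromosome 6, with Dppa3, a gene of germ cells and naive ESC, between them. Dppa3 was at 0 in both knockout NPC libraries, against 2.12 and 2.69 FPKM in knockout ESC, and at 0.131 and 0.179 FPKM in wild-type NPC, against 0.870 and 2.13 FPKM in wild-type ESC. Tcf19, which begins 1.96 kb beyond Pou5f1, moved the opposite way to it, by 1.79 ± 0.11 in knockout cells and by 1.33 ± 0.11 in wild-type cells. Gata4, the nearest tested gene before Tdh, ended 247 kb from it. Gata4 averaged 26.8 FPKM in knockout NPC and 2.66 FPKM in wild-type NPC, whereas Tdh was under 1 FPKM in all 4 libraries.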
